A study of Mus musculus with 4 samples.

Results

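The nuclei described here are neurons of the mouse spinal dorsal horn chosen by the summed counts of 6 genes, D130009I18Rik, D130079A08Rik, Cdh23, Plch1, Lmx1b and Hs3st2. A member carried at least 4 unique molecular identifiers (UMIs, each standing for 1 captured RNA molecule) of these genes together. It also had at least 300 genes, under 5% mitochondrial UMIs, and at least 2% of its UMIs from the neuron genes Snap25, Rbfox3, Syt1, Snhg11 and Meg3. It had no UMI of the inhibitory genes Slc32a1, Gad1, Gad2 and Slc6a5 or of the precursor genes Pdgfra and Cspg4. It also had under 3 UMIs of Lmo3, Unc5cl, Ptger3 and Otof together and under 3 of Nmu, Tac2, Rxfp1 and Gna14 together, genes of other excitatory populations. Of 112194 nuclei kept, 835 were members, or 0.744%. Of 16104 nuclei that passed every gate but the marker sum, the other 15269 had a sum under 4 and are called the other neurons below. These counts chose the members, so every level of a marker, and every difference between members and other neurons, is a description.

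Single nuclei were counted in 4 libraries, 1 for each group. They came from wild-type mice without injury (WT naive), Gpr37l1-/- mice without injury (KO naive), wild-type mice 1 day after spared nerve injury (WT SNI) and Gpr37l1-/- mice 1 day after that injury (KO SNI). Spared nerve injury cuts branches of the sciatic nerve and is a model of neuropathic pain, and Gpr37l1 is a G protein-coupled receptor known mainly from astrocytes. The labels give the tissue as spinal cord and the protocol as microdissected dorsal horn. Strain, age, the cells that lack Gpr37l1 and the number of animals in a library are not stated in the labels. Series of 4 values follow the order WT naive, KO naive, WT SNI and KO SNI. With 1 library per group no test was made, and the ratios describe these libraries. Intervals in parentheses are 95% intervals of counting error only. The titles gave the groups. The treatment tag goes against the title for the KO naive and the WT SNI library, and the library names follow the titles. The molecule label of the KO SNI library is total RNA, and that of the other 3 is polyA RNA.

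The libraries held 35197290, 69572640, 50605908 and 44079044 UMIs, with a median of 1446, 1510, 1489 and 1286 per kept nucleus. Members were deeper than that, at 2775.5, 3065, 2962 and 2245 UMIs, against 1847, 2102.5, 2074 and 1577 in the other neurons, as the rule sums counts without scaling them to depth. Library pairs shared 162 to 292 barcode sequences among kept nuclei, and no member barcode occurred in a second library. Gpr37l1 gave 1, 0, 5 and 0 UMIs in members and 62, 2, 108 and 0 in the other neurons, so the libraries labelled KO held almost none. The KO naive library stood apart in the other neurons too. There 5.98% of genes were at least 2-fold lower than in WT naive and 4.04% were at least 2-fold higher in KO SNI than in KO naive, against 0.397% and 0.484% in the matching contrasts that do not use it.

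Lmx1b encodes a LIM homeodomain transcription factor that many excitatory neurons of the dorsal horn need to form and to keep their identity. These neurons use glutamate, loaded into vesicles by the transporter VGLUT2 (Slc17a6), and carry touch, itch and pain signals between sensory axons, inhibitory neurons and projection neurons. Cdh23 encodes a cadherin known from the tip links of hair cells. Plch1 encodes a phospholipase C that cuts a membrane lipid to release inositol trisphosphate, and Hs3st2 an enzyme that adds sulfate to heparan sulfate chains. D130009I18Rik and D130079A08Rik are long intergenic noncoding RNAs that flank Pou4f1, the gene of a POU-domain transcription factor of sensory neurons and of some dorsal horn neurons.

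Most of the marker sum came from those 2 noncoding RNAs, which gave 67.6% of the members' marker UMIs. In GENCODE vM21 on GRCm38, D130079A08Rik lies on the minus strand of chromosome 14 from 104288431 to 104459336, and D130009I18Rik on the plus strand from 104612791 to 104966783. Pou4f1 sits between them on the minus strand, from 104461676 to 104467999, 2339 bases from the first and 144791 from the second. Lmx1b lies on chromosome 2 (33560965 to 33640511), Plch1 on chromosome 3 (63696234 to 63899472), Hs3st2 on chromosome 7 (121391859 to 121501770) and Cdh23 on chromosome 10 (60302748 to 60696490). Because both RNAs carry most of the sum that chose the members, the 250 bases before their RefSeq starts are shown, from RefSeq on GRCm38.p6, with the homeodomain core motif TAATTA in capitals. It reads the same on both strands. The D130009I18Rik window is chr14:104638894-104639143 on the plus strand, inside the longer GENCODE gene, and the D130079A08Rik window is chr14:104459337-104459586 on the minus strand.
D130009I18Rik: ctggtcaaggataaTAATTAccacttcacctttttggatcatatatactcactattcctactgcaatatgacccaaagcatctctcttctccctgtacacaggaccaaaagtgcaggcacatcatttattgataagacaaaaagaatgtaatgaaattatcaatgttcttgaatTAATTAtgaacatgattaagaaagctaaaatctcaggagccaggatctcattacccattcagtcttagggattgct
D130079A08Rik: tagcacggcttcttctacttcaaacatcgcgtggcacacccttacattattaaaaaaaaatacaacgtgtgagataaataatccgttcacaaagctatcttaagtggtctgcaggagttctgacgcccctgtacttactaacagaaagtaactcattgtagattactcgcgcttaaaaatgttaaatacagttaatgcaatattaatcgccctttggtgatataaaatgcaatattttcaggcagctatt
The first window holds TAATTA at 2 places, which start 236 and 76 bases before the RefSeq start, and the second holds none. Of 32851 such windows in RefSeq, 4.84% hold the motif. The windows of Pou4f1, Lmx1b, Cdh23, Plch1 and Hs3st2 hold none. A match describes the letters only.

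D130009I18Rik reached 788, 791, 865 and 952 CPM (counts-per-million, on the summed UMIs without mitochondrial genes) in members, and 41.5, 54.6, 44.8 and 55.3 in the other neurons. D130079A08Rik reached 387, 238, 401 and 341 CPM, and 15.3, 16.7, 17.1 and 19.7 in the other neurons, and its lowest member value was that of KO naive. Both were far higher in members in every library, which the rule favours, as both count in its sum.

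Among the coding markers, Cdh23 stood at 85.1, 81.2, 134 and 117 CPM in members, from 51, 70, 101 and 50 UMIs, against 16.1, 13.7, 12.6 and 15.5 in the other neurons. Plch1 stood at 165, 116, 143 and 224 CPM, from 99, 100, 108 and 96 UMIs, against 39.2, 34.8, 33.1 and 38.6. Hs3st2 stood at 169, 166, 133 and 152 CPM against 20.7, 27.7, 23.4 and 27.6. For each of these genes the lowest member library was above the highest library of the other neurons. Lmx1b stood at 175, 153, 131 and 147 CPM, from 105, 132, 99 and 63 UMIs, against 48.0, 43.0, 44.3 and 50.6. Lmx1b was not particular to members, however. Neurons chosen by at least 4 UMIs of Lmo3, Unc5cl, Ptger3 and Otof had 115, 92.3, 79.9 and 105 CPM (388 nuclei), and those chosen by Nmu, Tac2, Rxfp1 and Gna14 had 184, 69.3, 82.4 and 105 (129 nuclei). The members' Lmx1b levels lay above those of the Lmo3 set. They overlapped those of the Nmu set only through its WT naive value, from 34 nuclei. Both sets were held to a marker sum under 4, which limits Lmx1b in them.

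**Figure D1:**
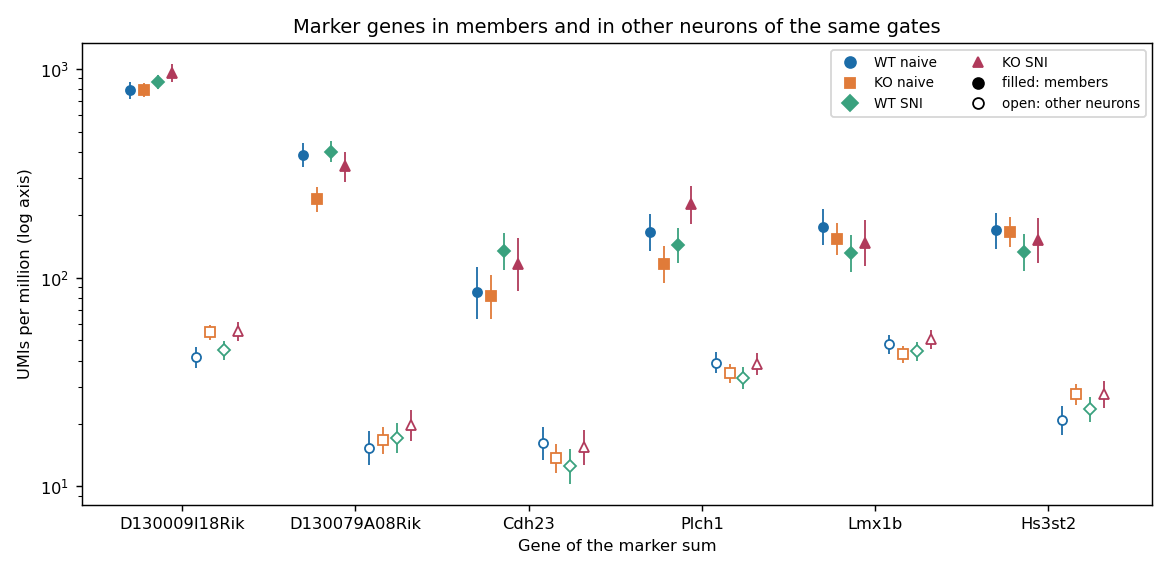
CPM of the 6 marker genes (log axis) in each library, with filled symbols for members, open symbols for the other neurons of the same gates, and bars for exact Poisson 95% intervals. Members lie above the other neurons for every gene, which the rule favours, as each gene counts in its sum. The markers differ in how far, with 81.2 to 134 CPM of Cdh23 in members against 12.6 to 16.1 in the other neurons.

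The label of these nuclei, neurons with Lmx1b, Cdh23 and Plch1, holds only in part. No Lmx1b UMI was seen in 62.9% of members, and 20.4% had UMIs of the noncoding RNAs alone. Cdh23 and Plch1 were both seen in 33 members, Cdh23 alone in 143, Plch1 alone in 221 and neither in 438. All of Lmx1b, Cdh23 and Plch1 were seen in 9 members. The sum that chose the members counts both Cdh23 and Plch1, which bears on how often they were seen together. Among all gated nuclei, a Plch1 UMI was seen in 70 of the 581 with a Cdh23 UMI and in 1297 of the 16104 in all. By share, Plch1 was thus more frequent with Cdh23 than over all gated nuclei. The part of depth in that was not tested. At this depth a missing UMI does not show a missing transcript. An Lmx1b UMI was seen in 37.1% of members, 9.04% of the other neurons and 0.678% of 5609 oligodendrocyte nuclei. Median depths were 2809, 1903 and 864 UMIs. Oligodendrocyte nuclei had at least 1% of UMIs from 5 myelin genes and under 2% from the neuron genes. The neuron gate starts at that same 2%, so nuclei with neuron RNA can be among them. Thinned to 500 UMIs a nucleus, the shares were 8.74%, 2.47% and 0.446%. In the other direction, members were 18.3% of the 1690 gated nuclei with an Lmx1b UMI. The members are therefore called by their rule here.

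The members met the inhibitory gate by definition, while their glutamatergic identity rested on few counts. Slc17a6, the gene of VGLUT2, stood at 159, 137, 154 and 119 CPM in members and 104, 112, 107 and 116 in the other neurons, a median log2 ratio of 0.41 (range 0.04 to 0.61). A Slc17a6 UMI was seen in 35.3% of members, 20.1% of the other neurons and 7.49% of oligodendrocyte nuclei. Thinned to 500 UMIs these shares were 5.87%, 5.47% and 4.21%, and pooled levels were 143, 109 and 81.8 CPM. The members' share at equal depth was thus near that of the oligodendrocyte nuclei, while their level was higher. How much neuron RNA those oligodendrocyte nuclei held was not tested, so their values are not a clean background. Prrxl1 (Drg11), a homeodomain factor of dorsal horn and sensory neurons, was seen in 6.23%, 3.58% and 0.856%. Tlx3, a selector of glutamatergic fate, was seen in 1.56%, 1.36% and 0.695%. Thinned to 500 UMIs, Prrxl1 was seen in 1.08% of members, 1.12% of the other neurons and 0.446% of oligodendrocyte nuclei. For Tlx3 these shares were 0.479%, 0.406% and 0.357%, close to the oligodendrocyte value in both sets of neurons.

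At the edge of the rule, 340 members had a marker sum of exactly 4 and 508 gated nuclei had a sum of 3. The median depth was 2626 UMIs inside and 2415 outside, a Slc17a6 UMI was seen in 34.7% and 29.9%, and an Lmx1b UMI in 31.2% and 28.3%. Higher sums were rarer, with 191 members at 5, 120 at 6, 72 at 7 and 112 at 8 or more, up to 16. Only 103 members had UMIs of 1 marker, while 314 had 2 markers, 321 had 3, 84 had 4, 12 had 5 and 1 had all 6.

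Members made up 0.965% (0.833 to 1.11), 0.664% (0.584 to 0.752), 0.859% (0.753 to 0.977) and 0.584% (0.498 to 0.681) of kept nuclei, from 190, 249, 233 and 163 members. Both KO libraries were below both WT libraries. Among nuclei past the neuron gate the shares were 3.45%, 3.07%, 3.79% and 2.93%. Both KO libraries were again the lowest, but each KO interval overlapped each WT interval. The intervals were 2.98 to 3.96 in WT naive, 2.70 to 3.46 in KO naive, 3.32 to 4.29 in WT SNI and 2.50 to 3.41 in KO SNI. With the rule run on nuclei thinned to 2000 UMIs, a step that leaves shallower nuclei out, shares were 1.35%, 0.786%, 1.15% and 1.02%. Whether genotype, depth or the mix of nuclei in a library moved the share cannot be told apart with 1 library per group.

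The members did not form 1 group. All 25352 nuclei past the neuron gate were clustered on 2970 variable genes that held none of the genes of the rule, and clusters are given by number. Cluster 7 held 343 members (41.1%), cluster 10 held 131 (15.7%) and cluster 9 held 104 (12.5%), and the other 257 (30.8%) were spread over other clusters. In cluster 7, 33.3% of the 1029 nuclei were members. In clusters 10 and 9 these shares were 13.8% and 10.6%. The smaller cluster 28 had a like share, 10.6%, with 23 members among 217 nuclei. On average 25.4% of a member's 19 nearest neighbours were members too, against 2.88% for the other neurons of the same gates. The share of members in cluster 7 was 41.1%, 45.0%, 39.1% and 38.0% in the 4 libraries. The share of nuclei in these 3 clusters was 5.00% at a marker sum of 0, 19.7% at 1, 39.3% at 2, 56.7% at 3 and 67.1% at 4. It had no step at the threshold. These 3 clusters were picked as those with most members, which bears on their share at a sum of 4 or more. Median depth rose along the same axis, from 1817 UMIs at a sum of 0 to 2626 at 4.

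**Figure D2:**
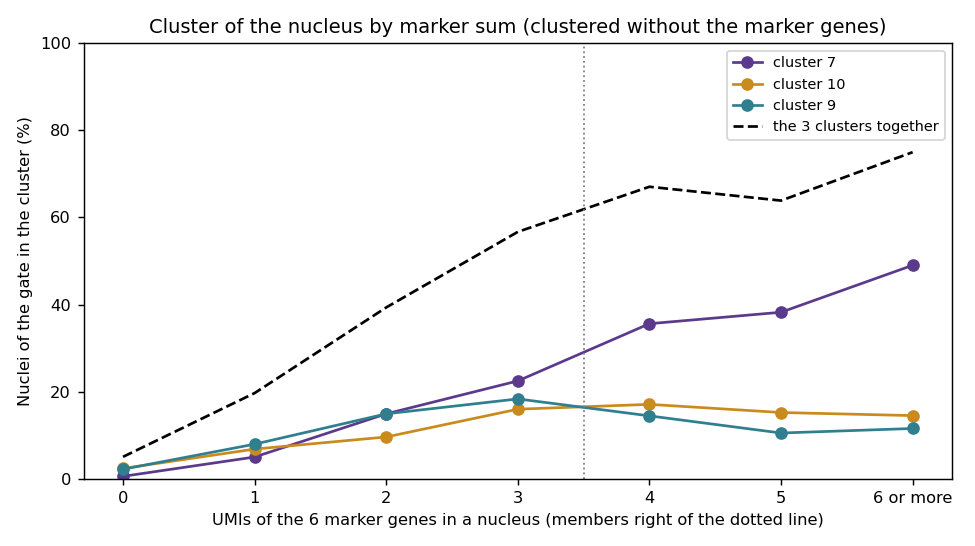
Share of gated nuclei (%) that fell in cluster 7, 10 or 9, and in the 3 together, by the UMIs of the 6 markers in the nucleus; the clustering used none of those genes and members lie right of the dotted line. The 3 clusters together hold 5.00% of nuclei at a sum of 0, 56.7% at 3 and 75.0% at 6 or more, and only cluster 7 keeps gaining above 4. These 3 clusters were picked as those with most members, and median depth rises from 1817 UMIs at 0 to 3152 at 6 or more.

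Among the 3 clusters with most members, Cdh23 and Plch1 were highest in different ones. Over all nuclei of clusters 7, 10 and 9, members or not, Cdh23 stood at 123, 7.25 and 4.90 CPM and Plch1 at 32.0, 111 and 127. Of these 3 clusters, cluster 7 held the most Cdh23 and the least Plch1. Among members a Cdh23 UMI was seen in 123 of 343 in cluster 7, 7 of 131 in cluster 10 and 0 of 104 in cluster 9. A Plch1 UMI was seen in 38, 64 and 64 of them. D130079A08Rik followed Cdh23, at 382, 38.9 and 38.4 CPM over all nuclei, while D130009I18Rik reached all 3 clusters, at 588, 372 and 352. Lmx1b stood at 138, 80.1 and 80.4 CPM and Hs3st2 at 111, 27.5 and 89.4. Cluster 28 (217 nuclei, 23 members) held D130009I18Rik at 465 CPM and Hs3st2 at 199. By library Cdh23 ranged from 95.9 to 162 CPM in cluster 7 and from 4.28 to 13.0 in cluster 10. Neither gene was limited to these clusters. Cluster 18 (542 nuclei, 3 of them members) held both, at 158 CPM of Cdh23 and 166 of Plch1, and Plch1 reached 499 CPM in cluster 24 (364 nuclei, 7 members). An inhibitory UMI of the rule was seen in 50.7% of nuclei in cluster 18 and 40.9% in cluster 24.

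**Figure D3:**
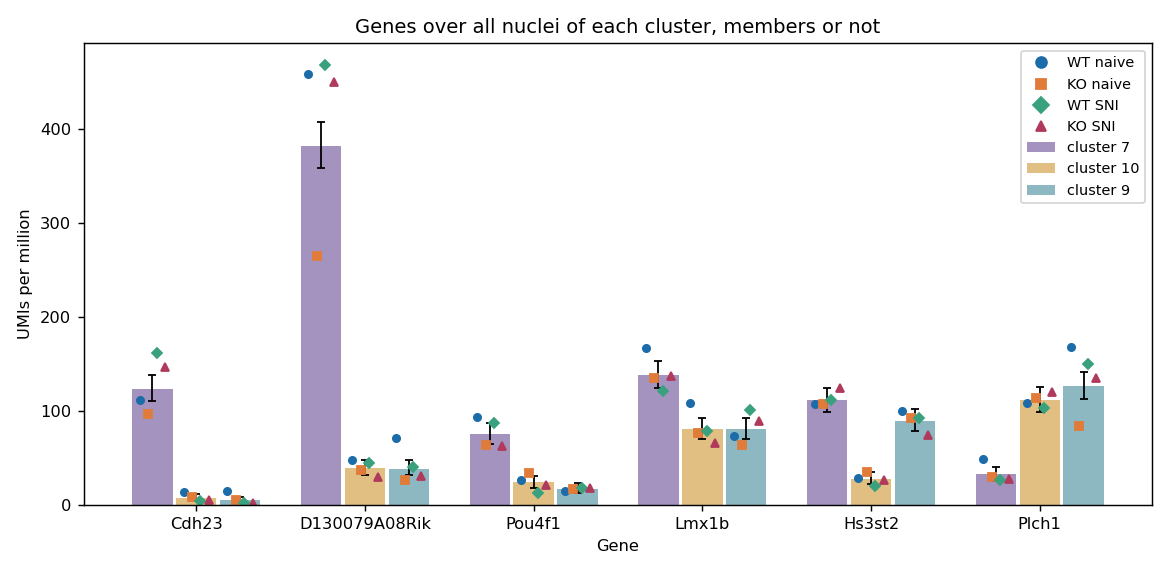
CPM of 6 genes over all nuclei of clusters 7, 10 and 9; bars are the 4 libraries pooled with exact Poisson 95% intervals, and symbols are single libraries. Cdh23, D130079A08Rik and Pou4f1 stand highest in cluster 7 (123, 7.25 and 4.90 CPM for Cdh23), whereas Plch1 is lowest there (32.0, 111 and 127 CPM), in each of the 4 libraries.

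The 3 clusters differed in transcription factors and transmitters too. These genes helped to define the clusters, so their values are a description. Pou4f1 stood at 75.0, 23.6 and 16.7 CPM over clusters 7, 10 and 9, and Tcf4, a basic helix-loop-helix factor, at 1806, 461 and 294. Nfia and Nfib, nuclear factor I genes, stood at 523, 200.2 and 135 CPM and at 488, 238 and 108. The homeodomain gene Prox1 stood at 82.4, 9.91 and 10.2 CPM. All of these were highest in cluster 7. Rora, an orphan nuclear receptor, went the other way at 1349.5, 1934 and 3653 CPM, as did the homeodomain gene Meis2 at 152, 328 and 745. Of signalling genes, Pdyn, the dynorphin precursor, stood at 43.4, 2.29 and 5.31 CPM, Penk, the enkephalin precursor, at 137, 55.7 and 39.2, and Adcyap1, the precursor of PACAP, at 70.7, 18.7 and 23.7. Aldh1a2, an enzyme of retinoic acid synthesis, stood at 63.7, 1.52 and 0.816 CPM. Tac1, the substance P precursor, was highest in cluster 9, at 60.6, 41.2 and 108, and so was the serotonin receptor gene Htr2c, at 263, 492 and 1137. Nxph1, which encodes a neurexin ligand, stood at 174, 431 and 1420.3 CPM, and the glypican gene Gpc5 at 350.1, 349.7 and 2252. Rxfp1, a relaxin receptor that the rule counted against, was highest in cluster 10, at 5.47, 54.9 and 16.7.

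Set against the other neurons, members differed by 2-fold or more in every library for few genes. Of 10827 genes with at least 50 UMIs in members and other neurons together in each library, 13 were higher (0.12%) and 10 lower (0.0924%). The 6 markers of the rule were among the 13, and 7 genes were outside it (0.0648% of 10809). The median log2 ratio over all genes was -0.09. Pou4f1, the gene between the noncoding RNAs, led at 51.7, 55.7, 37.2 and 30.3 CPM in members and 8.27, 9.87, 8.73 and 8.39 in the other neurons, a median log2 ratio of 2.29 (range 1.85 to 2.65). Among nuclei with a Slc17a6 UMI 7 genes were higher and 4 lower. For members of cluster 7 alone, against the other neurons of all clusters, 60 were higher and 58 lower. That cluster was drawn from the expression of variable genes in these nuclei, so its larger counts are a description. The Slc17a6 set and the cluster 7 set hold fewer UMIs, so fewer genes reach the minimum and their counts are not out of 10827. For Pou4f1 the lowest member library, KO SNI, was above the highest library of the other neurons. A Pou4f1 UMI was seen in 11.7% of members, 1.87% of the other neurons and 0.392% of oligodendrocyte nuclei, or 2.16%, 0.419% and 0.214% thinned to 500 UMIs.

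Of the other genes that set members apart, Tcf4 stood at 1058, 1047, 1078 and 1001 CPM in members and 399.9, 444, 415 and 419.6 in the other neurons, with a median log2 ratio of 1.31 (range 1.24 to 1.40). Schip1, whose product binds ankyrin at the axon initial segment, had 1.27 (range 1.25 to 1.72). Scn7a, an atypical sodium channel gene, had 1.29 (range 1.22 to 1.83), and the class 3 semaphorin genes Sema3d and Sema3e, axon guidance cues, 1.26 (range 1.13 to 1.43) and 1.11 (range 0.94 to 1.39). Pcsk6, a proprotein convertase, had 1.14 (range 1.07 to 1.27). Several genes with fewer counts followed. Uncx, a homeodomain factor, had 1.22 (range 0.93 to 1.64) from 54 member UMIs, Col6a1, a collagen VI chain, 1.56 (range 0.95 to 1.91) from 64, and the orphan receptor gene Gpr139 1.04 (range 0.86 to 1.67) from 43. Gfra1, a receptor for GDNF, had 0.92 (range 0.89 to 1.00), Cnih3, an AMPA receptor partner, 0.97 (range 0.88 to 1.07), and Chn2, a Rac regulator, 1.04 (range 0.92 to 1.32). Chst9, a sulfotransferase gene, had 1.09 (range 0.97 to 1.26). The median ratios of Plcxd2, Pld5, Ankfn1 and the noncoding E130114P18Rik, A830012C17Rik and A230077H06Rik lay between 0.96 and 1.34.

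Genes that were lower in members included those of inhibitory neurons. Pax2, a paired-box factor of inhibitory dorsal horn neurons, stood at 16.7, 22.0, 10.6 and 28.0 CPM against 63.6, 61.4, 57.5 and 59.5, a median log2 ratio of -1.70 (range -2.44 to -1.09). Pax8, its relative, had -1.98 (range -2.60 to -1.60), from 4, 4, 4 and 2 member UMIs. The zinc finger gene Bnc2 had -2.67 (range -3.65 to -1.59), from 2, 15, 4 and 3 member UMIs. Sall3, another, had -2.01 (range -2.89 to -1.57), from 3, 2, 4 and 2. P-cadherin (Cdh3) had -1.85 (range -3.25 to -1.16) and Zfp113 -1.89 (range -2.76 to -1.15), from 11 and 7 member UMIs. The other neurons had no inhibitory UMI by the gate. When both sides were limited to nuclei with a Slc17a6 UMI, the medians were 0.29 for Pax8, 0.11 for Cdh3, -0.81 for Pax2 and -0.91 for Sall3. For Pax8, Cdh3 and Sall3 these medians rest on few member UMIs. Sox5, Ntng1 and Pde11a remained lower with that limit. Sox5, a factor of many dorsal horn neurons, went from -1.74 to -1.62, Ntng1, which encodes netrin-G1, from -1.43 to -1.85, and Pde11a, a phosphodiesterase gene, from -1.67 to -1.68. Adamts5, which encodes a matrix protease, went from -1.27 to -0.43. It gave only 3, 4, 3 and 1 UMIs over all members. Pou4f1 and Tcf4 remained higher, at 1.85 and 1.30.

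**Figure D4:**
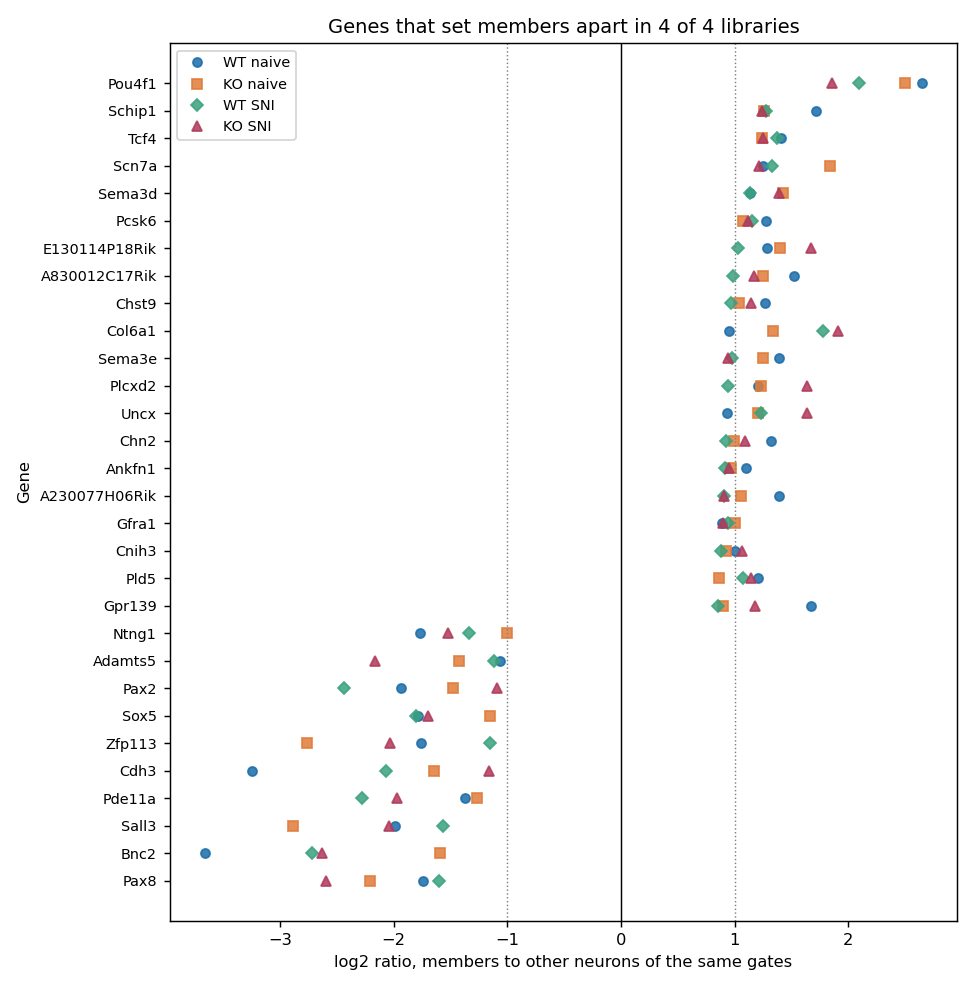
log2 ratio of members to the other neurons of the same gates in each library (symbols) for the 20 highest and 10 lowest genes ranked by their smallest ratio, with dotted lines at 2-fold. Pou4f1 stands apart at 1.85 to 2.65, and the lowest genes, such as Bnc2 at -3.65 to -1.59, spread more widely between libraries. Bnc2 gave 2, 15, 4 and 3 member UMIs.

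Most gene lists were split between higher and lower members. Over all genes, 7.35% were above 0 and 18.9% below 0 in 4 of 4 libraries. Of 29 excitatory transcription factors with enough counts, 9 were higher and 8 lower in 4 of 4, with a median of 0.02. Besides Pou4f1, Tcf4 and Sox5, Nfix had 1.05 (range 0.71 to 1.43), Nfib 0.88 (range 0.71 to 0.97), and Ebf2, a helix-loop-helix factor, -1.17 (range -1.36 to -0.76). Of 5 inhibitory factors 5 were lower, with a median of -1.70. Of 19 neuropeptide genes, 1 was higher and 11 were lower, with a median of -0.38. Cytoplasmic transcripts, with 0 of 10 higher and 9 lower (median -0.40), and heat shock genes, with 0 of 21 higher and 13 lower (median -0.25), were lower in members too, and their part in the neuropeptide values was not tested. Among the 19, Sst, the somatostatin gene, had -0.86 (range -1.14 to -0.32) and Nts, the neurotensin gene, -0.60 (range -1.02 to -0.42). Pdyn had 1.59 (range 1.44 to 1.66) from 56 member UMIs, but it is not among the 19 neuropeptide genes. It did not reach 50 UMIs in members and other neurons together in every library. By share of nuclei, a Pdyn UMI was seen in 5.75% of members, 1.51% of the other neurons and 1.27% of oligodendrocyte nuclei. Thinned to 500 UMIs the Pdyn shares were 1.32%, 0.400% and 0.731%, so the oligodendrocyte value lay above the other neurons and below members.

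Among receptors and channels, 6 of 29 peptide and amine receptor genes were higher and 7 lower in 4 of 4 libraries. The kappa opioid receptor gene Oprk1 had 1.04 (range 0.31 to 1.12), the dopamine receptor gene Drd2 0.96 (range 0.67 to 1.66), and Tacr1, the substance P receptor gene, 0.62 (range 0.29 to 0.80). The alpha-1 adrenergic receptor gene Adra1a had -0.65 (range -1.32 to -0.33). Of 27 glutamate receptor genes 11 were higher and 8 lower, with Grik2, a kainate receptor gene, at -0.71 (range -0.83 to -0.56). Of 21 GABA-A and glycine receptor genes 3 were higher and 11 lower, with Glra2 at 0.75 (range 0.42 to 0.87). Of 41 potassium channel genes and partners 12 were higher and 8 lower. Kcnip1, an A-type channel partner, had 0.96 (range 0.80 to 1.04), Kcnmb2, a subunit of calcium-activated channels, 0.89 (range 0.83 to 1.01), and Kcnk9, a leak channel gene, 0.82 (range 0.68 to 1.10). Of 37 sodium, calcium and TRP channel genes 8 were higher and 9 lower, with the calcium channel subunit genes Cacna2d1 at 0.56 (range 0.45 to 0.67) and Cacna2d3 at -0.99 (range -1.40 to -0.60).

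The families of the markers themselves went both ways. Of 26 cadherin and tip-link genes outside the rule, 6 were higher and 9 lower in 4 of 4 libraries, with a median of -0.01. Cdh4 had 0.81 (range 0.74 to 1.05) and Cdh6 -0.90 (range -1.14 to -0.89). Of 25 phospholipase C and inositol phosphate genes 5 were higher and 5 lower. Itpr1, an inositol trisphosphate receptor gene, had 0.47 (range 0.09 to 0.84). Of 22 heparan sulfate genes 2 were higher and 6 lower, and Hs3st4, of the same enzyme family as Hs3st2, had -0.69 (range -0.91 to -0.57). Of 64 adhesion and guidance genes 29 were higher and 11 lower, with a median of 0.09. There Slit1, an axon repellent, had 1.01 (range 0.84 to 1.19), Sema5a 0.91 (range 0.83 to 1.11) and Nrxn3, a presynaptic adhesion gene, -0.71 (range -0.78 to -0.60).

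Transcripts of other cells were present at low levels and varied between libraries. Summed CPM of 11 oligodendrocyte markers in members was 684, 915, 804 and 614, and 851, 1171, 946 and 899 in the other neurons, with no marker at 0 in members. That of 10 microglia markers was 187, 142, 228 and 404 in members, highest in KO SNI, and 219, 168, 277 and 483 in the other neurons. That of 10 astrocyte markers was 194, 241, 232 and 268, with 1 gene at 0 in each library. Motor neuron markers reached 8.35, 1.16, 19.9 and 51.3 and sensory ganglion markers 16.7, 5.80, 18.6 and 30.3, with 3, 6, 2 and 2 of 7 and 7, 9, 6 and 8 of 10 genes at 0. The sum of 10 cytoplasmic transcripts was 1062, 1082, 1742 and 1624 in members and 1422, 1437, 2135 and 2080.2 in the other neurons, higher in both SNI libraries. Doublet scores marked 12, 3, 6 and 2 members.

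Over 12 points, 3 sets of neurons in 4 libraries, the genes outside the rule whose CPM followed Cdh23 most closely were Uncx (Pearson r = 0.942), Tox3 and Meis2. Between clusters 7, 10 and 9 Meis2 ran opposite to Cdh23, as given above. Those closest to Lmx1b were Gm12128 (0.877), Arhgef10l, Tmem196, Fam131a and Ripk2. The points share libraries, and the sets were chosen on Cdh23, Lmx1b and the other rule genes, so these values only rank genes.

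Loss of Gpr37l1 was compared within members, by KO to WT, without and with injury. Without injury, 50 (1.01%) of 4944 genes with at least 50 UMIs over both libraries were at least 2-fold higher in KO and 108 (2.18%) at least 2-fold lower. After injury, 11 (0.252%) of 4368 were higher and 33 (0.755%) lower. In the other neurons the shares were 0.591% and 5.98% without injury, and 0.569% and 0.397% with it. The counting intervals of single genes had a median full width of 1.16 and 1.25 log2 units. With a minimum of 100 UMIs, 10 genes were higher and 33 lower without injury, and 2 and 3 after injury. Fewer genes meet that minimum, so these counts cannot be set against those at 50 UMIs.

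Kcnh8, a voltage-gated potassium channel gene, gave 17, 57, 23 and 28 UMIs in members, or 28.4, 66.1, 30.5 and 65.3 CPM. Both KO libraries were above both WT libraries, at log2 ratios of KO to WT of 1.22 (0.42 to 2.10) and 1.10 (0.25 to 1.96), against 0.27 and 0.18 in the other neurons. Il1rapl2, a synaptic adhesion gene of the interleukin-1 receptor family, gave 61, 149, 87 and 132 UMIs, with ratios of 0.76 (0.32 to 1.22) and 1.42 (1.01 to 1.82), against 0.18 and -0.10 in the other neurons. Its count after injury came from few nuclei, since 3 members held 65 of the 87 UMIs in WT SNI and 3 held 90 of the 132 in KO SNI. Col26a1, a collagen gene, gave 24, 57, 22 and 29 UMIs, with ratios of 0.72 (0.01 to 1.48) and 1.21 (0.36 to 2.08), against 0.05 and 0.14 in the other neurons. The calcium channel subunit gene Cacna2d3 gave 121, 317, 129 and 118 UMIs, with ratios of 0.86 (0.56 to 1.18) and 0.69 (0.31 to 1.06), against 0.32 and 0.13 in the other neurons. In cluster 7 alone Cacna2d3 gave 10, 82, 20 and 9 UMIs, of 207418, 330495, 258783 and 131135 UMIs in total. Its ratio there was 2.36 without injury. After injury the counts in cluster 7 were under the minimum of 50 UMIs, so the higher KO value was not seen again there. Among Fbxo8, Capzb, Efl1, Sirpa, Socs7, Exoc6 and Dnmbp, the smaller of both ratios lay between 0.73 and 0.84, from 18 to 63 UMIs a library.

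Brd9, a chromatin remodeler subunit, gave 87, 60, 129 and 30 UMIs, or 145, 69.6, 171 and 70.0 CPM, with both KO libraries below both WT libraries. Its ratios were -1.06 (-1.56 to -0.57) and -1.29 (-1.92 to -0.71), against -1.04 and -0.35 in the other neurons. Prlr, the prolactin receptor gene, gave 46, 27, 43 and 13 UMIs, with ratios of -1.29 (-2.04 to -0.58) and -0.91 (-1.93 to 0.01), against 0.07 and 0.12 in the other neurons. Supt5, a transcription elongation factor gene, gave 43, 27, 57 and 17 UMIs, with ratios of -1.20 (-1.95 to -0.47) and -0.93 (-1.81 to -0.13), against -0.15 and 0.08 in the other neurons. The noncoding Mkln1os had -1.30 (-2.15 to -0.49) and -1.03 (-2.09 to -0.08), against -1.05 and -0.27 in the other neurons. Dhps, Gm49179, Fkbp3, Stard5, Gtf2f2 and Ufl1 were lower in both contrasts as well, with ratios from -1.25 to -0.73. Whether genotype or the library sets these values cannot be told apart.

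Other list genes were named for their ratio in 1 state. Without injury, the phospholipase C gene Plce1 had a KO to WT ratio of 1.20 (0.45 to 2.03) and the cadherin gene Cdh20 1.04 (0.51 to 1.58). After injury they had 0.10 (-0.68 to 0.85) and -0.08 (-0.72 to 0.55). Penk had -0.88 (-1.46 to -0.30) without injury, from 60, 47, 91 and 39 UMIs, and Zfhx3, a homeobox gene, -0.93 (-1.25 to -0.62), from 199, 150, 146 and 109. In WT naive, 3 members held 74 of the 199 Zfhx3 UMIs. Gapdh, a glycolytic gene, had -1.09 (-1.85 to -0.35). After injury Slc17a5, a lysosomal transporter gene, had -1.26 (-2.42 to -0.24), from 42 and 10 UMIs. The differences between states were not tested.

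Injury was compared as SNI to naive within each genotype, 1 day after the injury. In WT, 39 (0.808%) of 4824 genes were at least 2-fold higher after SNI and 9 (0.187%) at least 2-fold lower. In KO, 66 (1.47%) of 4492 were higher and 38 (0.846%) lower. The other neurons had 0.484% and 0.186% in WT, and 4.04% and 0.32% in KO. With a minimum of 100 UMIs, which fewer genes meet, the members' counts were 3 higher and 1 lower in WT, and 9 and 5 in KO. The injury contrast in KO shares the KO naive library with the genotype contrast without injury.

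Of the 10 highest genes, Nefl, the light neurofilament gene, gave 23, 36, 56 and 54 UMIs in members, or 38.4, 41.8, 74.3 and 126 CPM. Both SNI libraries were above both naive ones, at SNI to naive ratios of 0.95 (0.23 to 1.72) and 1.59 (0.96 to 2.24), against 0.35 and 1.16 in the other neurons. The alpha-tubulin gene Tuba1a gave 26, 35, 55 and 53 UMIs, with ratios of 0.75 (0.05 to 1.48) and 1.61 (0.96 to 2.27), against 0.43 and 1.01 in the other neurons. Tmsb4x, the gene of an actin-binding thymosin, gave 88, 167, 253 and 136 UMIs, with ratios of 1.19 (0.84 to 1.56) and 0.71 (0.38 to 1.05), against 1.01 and 0.63 in the other neurons. The ribosomal genes Rpl28, Rps7 and Rpl21 had 1.07 (0.31 to 1.90), 0.97 (0.26 to 1.72) and 0.77 (0.16 to 1.42) in WT and 1.72 (0.91 to 2.55), 0.96 (0.17 to 1.75) and 0.88 (0.14 to 1.61) in KO. Clu, a secreted chaperone gene that astrocytes also express, gave 14, 29, 40 and 35 UMIs, with ratios of 1.18 (0.28 to 2.18) and 1.28 (0.53 to 2.04), against 0.17 and 0.55 in the other neurons. For Rangap1, Chchd2 and Acot7 the smaller of both ratios was 0.79 to 0.88.

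Cytoplasmic transcripts, a list that includes Tmsb4x, were higher in the same libraries. Of those with enough counts, 8 of 8 were above 0 in WT, where 50.1% of all genes were, with a median of 0.58 in members and 0.55 in the other neurons. In KO 8 of 9 were, where 46.9% of all genes were, with medians of 0.65 and 0.51. Heat shock and unfolded protein genes were above 0 in 15 of 15 in WT, with a median of 0.30 in members and 0.34 in the other neurons, and in 10 of 15 in KO. The part of cytoplasmic RNA in the injury values was not tested. Neuropeptide genes were above 0 in 7 of 8 in WT and 5 of 7 in KO. Of excitatory transcription factors 5 of 23 were above 0 in WT, with a median of -0.24 in members and -0.04 in the other neurons. In KO 7 of 22 were, with medians of -0.06 and -0.07. No heat shock, neuropeptide or excitatory transcription factor gene was past 2-fold in either contrast.

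Among the lower genes, Ebf2 gave 82, 139, 66 and 42 UMIs, with SNI to naive ratios of -0.64 (-1.13 to -0.16) and -0.72 (-1.25 to -0.21), against -0.34 and -0.19 in the other neurons. Adamtsl1, a gene of the extracellular matrix, gave 73, 126, 55 and 34 UMIs, with ratios of -0.74 (-1.27 to -0.21) and -0.88 (-1.47 to -0.33), against -0.28 and -0.10 in the other neurons. Both SNI libraries were below both naive ones for each. Ccdc50 had -1.11 (-1.75 to -0.48) and -0.64 (-1.40 to 0.07), against 0.00 and 0.01 in the other neurons. Osbpl3, Lin52, Mbd6, Map1a, Mamld1, Abce1 and B3gat1 were below 0 in both contrasts, at -0.55 or less. Reln, the gene of the secreted glycoprotein reelin, had -1.35 (-1.88 to -0.83) in WT and -0.15 (-0.71 to 0.39) in KO, from 97, 94, 48 and 42 UMIs. In WT naive, 3 members held 36 of its 97 UMIs, and within cluster 7 its WT ratio was -0.61. Ndst4, a heparan sulfate enzyme gene, had -0.94 (-1.45 to -0.44) in WT, where 3 members held 42 of the 87 naive UMIs. Zfhx3 had -0.78 (-1.10 to -0.46) in WT and 0.55 (0.18 to 0.91) in KO. Of the markers, Plch1 had -0.20 (-0.61 to 0.20) and 0.95 (0.53 to 1.37), and Cdh23 0.66 (0.15 to 1.17) and 0.52 (-0.03 to 1.07), which the choice of members touches.

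**Figure D5:**
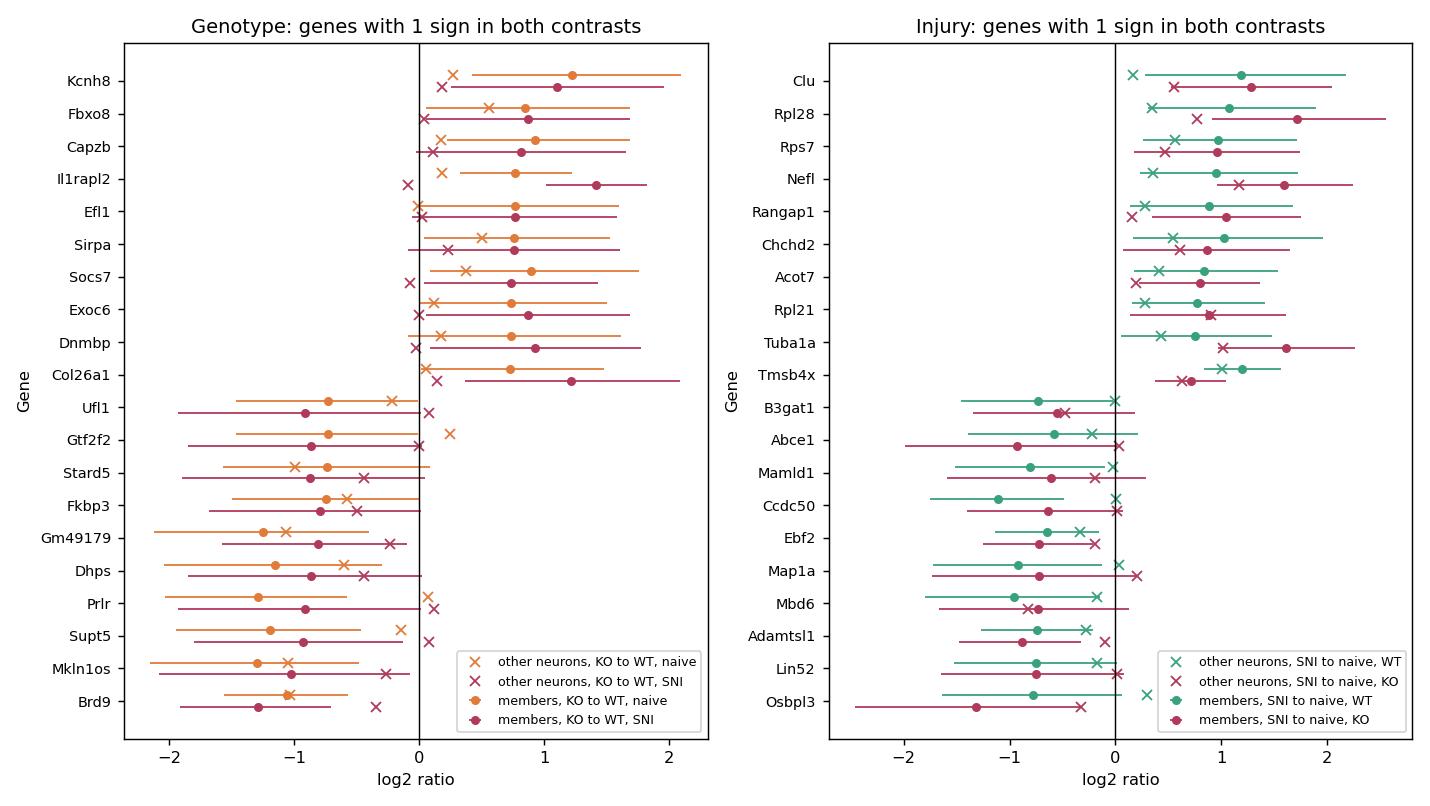
log2 ratios in members (points with 95% counting intervals) and in the other neurons (crosses) for the 10 highest and 10 lowest genes with 1 sign in both contrasts, of KO to WT on the left and of SNI to naive on the right. Members' intervals are wide, and for Brd9 without injury the members (-1.06) and other neurons (-1.04) nearly coincide, while for Prlr the other neurons stay near 0.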

How the data were processed

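Single-nucleus 3' libraries (10x v3.1, MGISEQ-2000) were made from nuclei of microdissected dorsal horn spun through sucrose, per the labels' protocols. The authors deposited UMI counts of 32285 genes per barcode, made with Cell Ranger 7.0.0 per the file headers. The submitters' processing notes name GRCm38, Seurat 4.3.0 and R 4.3.0, with no role. The annotation release and the treatment of intronic reads are not given in those sources.

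From 112746 barcodes, barcodes under 300 genes, or with 5% or more of UMIs mitochondrial, were removed. The deposited counts were summed over members per library and divided by the total without mitochondrial genes. Members' depth was 602083, 864685, 756882 and 430330 UMIs. Intervals are exact 95% Poisson, Clopper-Pearson or conditional binomial ones, and cover counting error only. Ratios with 0 UMIs on 1 side used 3 UMIs there. A gene entered with at least 50 UMIs in a comparison, and past the fold means 2-fold, or 1 on the log2 scale. No p-value was computed, since a group was 1 library. Ratios were tested on simulated data.

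Members and gene lists were chosen with earlier results of these data known. Named genes were up to 6 per list with 1 sign in 4 libraries, the 20 highest and 10 lowest against other neurons, the 10 highest and 10 lowest with 1 sign in both contrasts of a factor, and up to 3 per list and contrast. Cluster genes, and genes named by their share of nuclei, were picked after their values were seen.

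Scrublet marked 9.76%, 4.80%, 9.85% and 5.65% of barcodes as doublets, at the 90th percentile in the first and the third library, where its own threshold marked under 0.5%. Marked nuclei were kept. Clusters came from Leiden (resolution 1, 40 components, 20 neighbours) in scanpy 1.11.5. Other software was python 3.11.15, numpy 2.4.6, scipy 1.17.1, pandas 2.3.3 and matplotlib 3.10.9. The first oligodendrocyte gate (myelin genes at least 2%, neuron genes under 0.5%) left 26, 2, 9 and 22 nuclei and was widened after seeing the data. Alternatives changed the marker minimum, gates, depth, count minimum and weighting.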

Additional observations from a re-analysis of the deposited data

Results flagged for a closer look

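Mobp, a myelin gene of oligodendrocytes, gave 16, 49, 43 and 12 UMIs in members (order WT naive, KO naive, WT SNI, KO SNI). Its log2 ratio of KO to WT was 1.09 without injury and -1.03 after injury, so the libraries moved in opposite directions. As SNI to naive it was 1.09 in WT and -1.02 in KO. In the other neurons the genotype ratios were 0.89 and -0.35 and the injury ratios 0.79 and -0.46, and the members' summed oligodendrocyte markers were also highest in KO naive and WT SNI. The part of oligodendrocyte RNA in the Mobp values was not tested.

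Hoxc9, a homeobox gene of trunk position, gave 33, 22, 26 and 33 UMIs. Its KO to WT ratio was -1.11 without injury and 1.16 after injury. For both genes the difference between the effects was not tested, as each group is 1 library.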

How the results depend on the processing

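No paired analysis was possible because each group has 1 library. Values are for WT naive, KO naive, WT SNI and KO SNI. The share of kept nuclei that were members was 0.599%, 0.376%, 0.572% and 0.290% with at least 5 marker UMIs, and 0.396%, 0.272%, 0.288% and 0.186% with an Lmx1b UMI. It was 0.366%, 0.251%, 0.321% and 0.151% with a Slc17a6 UMI, 1.35%, 0.926%, 1.13% and 0.875% among nuclei of at least 1000 UMIs, 3.45%, 3.07%, 3.79% and 2.93% of the neuron gate, and 1.35%, 0.786%, 1.15% and 1.02% after thinning to 2000 UMIs. With at least 2 markers it was 0.573% in KO naive and 0.752% in WT SNI.

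Counts of genes past 2-fold are given next. Against the other neurons (13 higher, 10 lower), there were 22 higher with a minimum of 20 UMIs, 20 and 19 with 5 marker UMIs, 7 and 4 with a Slc17a6 UMI, 60 and 58 in cluster 7 alone, and 31 and 37 in the 3 clusters. There were 4 lower after thinning, 5 lower against nuclei with a marker sum of 0 and a Slc17a6 UMI, 16 lower as a mean over nuclei, and without 1 library 13 to 20 higher and 20 to 31 lower. Those last counts ask for 3 of 3 libraries, and were 20 and 20 without WT naive, 16 and 27 without KO naive, 17 and 26 without WT SNI and 13 and 31 without KO SNI. For KO to WT in naive (50 higher, 108 lower), there were 236 and 446 at 20 UMIs, 10 and 33 at 100 UMIs, 32 and 31 with a Slc17a6 UMI, 33 and 29 in cluster 7, 56 lower with 5 marker UMIs, 61 lower in the 3 clusters, 51 lower after thinning and 81 higher as a mean over nuclei. For KO to WT in SNI (11 and 33), there were 124 and 270 at 20 UMIs, 2 and 3 at 100, 7 and 8 in cluster 7, 7 higher with a Slc17a6 UMI or without Malat1, 19 higher after thinning and 18 higher as a mean over nuclei. For SNI to naive in WT (39 and 9), there were 213 and 165 at 20 UMIs, 3 and 1 at 100, 18 higher with a Slc17a6 UMI, 14 higher in cluster 7 and 23 higher after thinning, with 16 lower for 5 marker UMIs, 15 in the 3 clusters and 18 as a mean over nuclei. For SNI to naive in KO (66 and 38), there were 359 and 205 at 20 UMIs, 9 and 5 at 100, 35 and 23 in the 3 clusters, and 39 higher with 5 marker UMIs, 14 with a Slc17a6 UMI, 15 in cluster 7 and 16 after thinning. A minimum of 20 UMIs lets in more genes and a minimum of 100 UMIs fewer. Fewer UMIs leave fewer genes to count in the restricted sets, and beyond that the cause was not tested.

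Of 940 alternative values of 110 results on named genes, 833 stayed within the spread or interval of the reported value. Another 105 moved outside it with the sign kept, which includes moves toward 0. The remaining 2 reversed, Pax8 (0.29) and Cdh3 (0.11) with a Slc17a6 UMI, both from few member UMIs. Outside that set, Cdh23 for SNI to naive in KO was -0.05 after thinning, and Cdh20 for KO to WT in SNI was 0.01 as a mean over nuclei, each of the other sign than reported. The alternatives by cluster were chosen after seeing the data. Their counts against the other neurons are a description, since the clusters were drawn from gene expression in these nuclei.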
